A study of Mus musculus with 2 samples.

Results

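The genes described here come from families known for regulators of pre-mRNA splicing. These are the SR proteins, their Tra2 relatives, hnRNP proteins and the Rbm, Celf, Mbnl and Ptbp families of RNA-binding proteins. The set is called splicing regulators below, although not every member is one. The genes were chosen by a rule on symbols, which was set with earlier results of these data known. It took genes named Srsf, Hnrnp, Tra2, Rbm, Celf, Mbnl or Ptbp with a number or letter suffix. Of the 19938 genes with a transcript cluster of their own on the array, 76 met that rule. A transcript cluster is a set of probes summarised to 1 value, and where a gene had several, the cluster with the highest mean was taken. The symbol rule also caught Rbm3os, annotated as a long non-coding RNA and by its name opposite to Rbm3, and Rbm8a2, annotated as a pseudogene. Neither is annotated as a protein-coding gene.

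The KO cells were CD4 T cells of the spleen from a Taf7 -/- sample, with 1 null Taf7 allele and 1 floxed allele deleted by a transgene labelled 8EIII-cre. They were set against the same kind of cells from a Taf7 +/- (HET) sample, which carried the floxed and null alleles without Cre. Both samples carried the null allele, and by design the HET cells kept 1 functional copy of Taf7 and the KO cells none. Both samples came from a mixed C57/BL6 and 129 background, and the cells were sorted by high surface TCRbeta and CD4, with enrichment for low CD44. There was 1 array per genotype. The labels used here give neither the age nor the number of mice, nor the cells in which the transgene is active. Every difference below is therefore a comparison of 1 KO array with 1 HET array, with no replicate error and no test, and this number of arrays is what limits its precision.

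SR proteins bind exonic enhancers through RNA recognition motifs and recruit the splicing machinery through a domain rich in arginine and serine, whose phosphorylation controls their position and activity. Many hnRNP proteins bind silencers and counteract them, so the balance of both groups helps set which exons are kept. Many of these proteins limit their own mRNA by promoting inclusion of exons that expose it to nonsense-mediated decay. In T cells, hnRNP L-like, the product of Hnrnpll, is known for repressing the variable exons of Ptprc, the CD45 gene, as cells become activated or memory cells. Taf7 is a subunit of TFIID, the general transcription factor that recognises core promoters.

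Taf7 itself had a log2 signal of 7.79 in KO and 8.34 in HET, 1.46-fold lower in KO. Where its probes lie relative to the deleted part was not given, so this value checks the labels only if they lie inside it. The columns had medians of 7.75 in KO and 7.68 in HET. Of the CD4 T cell markers measured, all 8 lay above the filter on low signal, between 11.06 and 13.50 in KO and between 11.56 and 13.49 in HET. Of the CD8 T cell markers, Cd8a had 7.65 in KO and 7.63 in HET, below the filter, but Cd8b1 had 10.24 in KO and 10.50 in HET. Of 17 markers of B, myeloid, natural killer, erythroid and platelet lineages, 2 lay above it, and the 17 ranged from 4.49 to 8.37 in KO and from 4.58 to 8.24 in HET. The filter was a mean log2 signal of at least 7.71, the 50th percentile of all rows, and 67 of the 76 members passed it, as did 10457 genes in all.

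The 4 promoter sequences shown first are those of the members around which the results turn: Tra2a, the protein-coding member that was highest in KO, its paralog Tra2b, Hnrnph2, the lowest member that has a promoter in the table used, and Srsf3, whose transcript clusters disagreed. Each runs from 250 bases before the annotated start to 50 bases after it, is written 5′ to 3′ on the strand of the gene, and comes from RefSeq on build GRCm38.p6. Capitals mark matches, none overlapping another, to the TATA box (TATAAA or, on the other strand, TTTATA), the CCAAT box (CCAAT or ATTGG) and the GC box (GGGCGG or CCGCCC).
Tra2a, chr6:49264003-49264302, minus strand: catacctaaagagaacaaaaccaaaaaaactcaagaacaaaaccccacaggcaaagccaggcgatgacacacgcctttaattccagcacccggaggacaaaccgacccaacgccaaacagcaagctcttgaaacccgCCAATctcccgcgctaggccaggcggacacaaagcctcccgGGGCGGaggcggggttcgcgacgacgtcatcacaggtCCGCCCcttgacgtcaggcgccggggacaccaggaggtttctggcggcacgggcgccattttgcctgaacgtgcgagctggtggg
Tra2b, chr16:22265956-22266255, minus strand: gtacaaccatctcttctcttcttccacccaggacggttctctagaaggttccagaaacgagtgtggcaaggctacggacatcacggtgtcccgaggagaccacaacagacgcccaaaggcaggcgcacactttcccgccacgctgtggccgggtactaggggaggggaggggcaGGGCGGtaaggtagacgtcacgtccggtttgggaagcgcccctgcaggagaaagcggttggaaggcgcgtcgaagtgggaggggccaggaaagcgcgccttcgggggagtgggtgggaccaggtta
Hnrnph2, chrX:134600929-134601228, plus strand: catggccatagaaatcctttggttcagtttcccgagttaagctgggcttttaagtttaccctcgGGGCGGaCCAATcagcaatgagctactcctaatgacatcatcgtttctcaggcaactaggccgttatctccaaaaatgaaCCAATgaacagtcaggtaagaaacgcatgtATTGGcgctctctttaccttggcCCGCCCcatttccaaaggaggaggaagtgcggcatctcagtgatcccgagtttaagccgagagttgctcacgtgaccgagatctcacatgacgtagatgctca
Srsf3, chr17:29032410-29032709, plus strand: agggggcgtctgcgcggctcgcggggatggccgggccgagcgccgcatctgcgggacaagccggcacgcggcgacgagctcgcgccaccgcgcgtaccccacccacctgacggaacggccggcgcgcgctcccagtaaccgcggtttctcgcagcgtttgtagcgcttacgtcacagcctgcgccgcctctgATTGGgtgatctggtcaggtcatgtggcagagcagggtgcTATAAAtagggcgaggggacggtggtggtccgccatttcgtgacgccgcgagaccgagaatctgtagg
The TATA box is the element bound by the TBP subunit of TFIID. Among these 4 it was found in the Srsf3 promoter alone, its first base 18 bases before the annotated start. The Tra2a promoter had 1 CCAAT and 2 GGGCGG matches, that of Tra2b 1 GGGCGG match, and that of Hnrnph2 3 CCAAT and 2 GGGCGG matches. Of the 76 members, 64 had a promoter in the table, with 96 promoters in all. TATAAA stood in 11.5% of the member promoters and in 13.6% of all 32851 promoters, CCAAT in 42.7% against 37.4%, and GGGCGG in 62.5% against 35.7%. The set of all promoters covers 27025 genes and was not limited to genes above the filter. These shares therefore do not show a trait particular to splicing regulators. Letters found in such a window are a description and not a binding site.

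By the clusters with 1 symbol, the levels of the splicing regulators were close between the genotypes. Clusters that list several symbols were not counted here. Of those holding a symbol of the rule, 57.9% were at least 1.2-fold lower in KO, beside 21.9% of all clusters with several symbols, as described below. Above the filter, 6 of the 67 members differed by at least 1.2-fold in either direction, where 26.8% of all genes did. In the upward direction there were 3 members, against 8.32% of all genes, and in the downward direction 3, against 18.5%. No member differed by 1.5-fold, a size that 3.62% of all genes reached, 0.449% upward and 3.17% downward. None differed by 2-fold either, where the share of all genes was 0.363%, made of 0.0383% upward and 0.325% downward. The members had a median log2 difference (KO minus HET) of -0.02 and an interquartile range of 0.21, beside -0.05 and 0.30 for all genes above the filter. By sign, 27 members were higher in KO and 40 lower, so that 59.7% were lower, beside 59.1% of all genes. Of all genes past 1.2-fold, 31.0% were higher in KO, but 46.5% after the median difference was subtracted and 42.5% after quantile normalization. The members numbered 3 higher and 3 lower under each of these. With other filters they numbered 6 and 3 (none), 5 and 3 (25th percentile) and 1 and 2 (75th percentile). Nothing is read from the split of so few members.

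**Figure D1:**
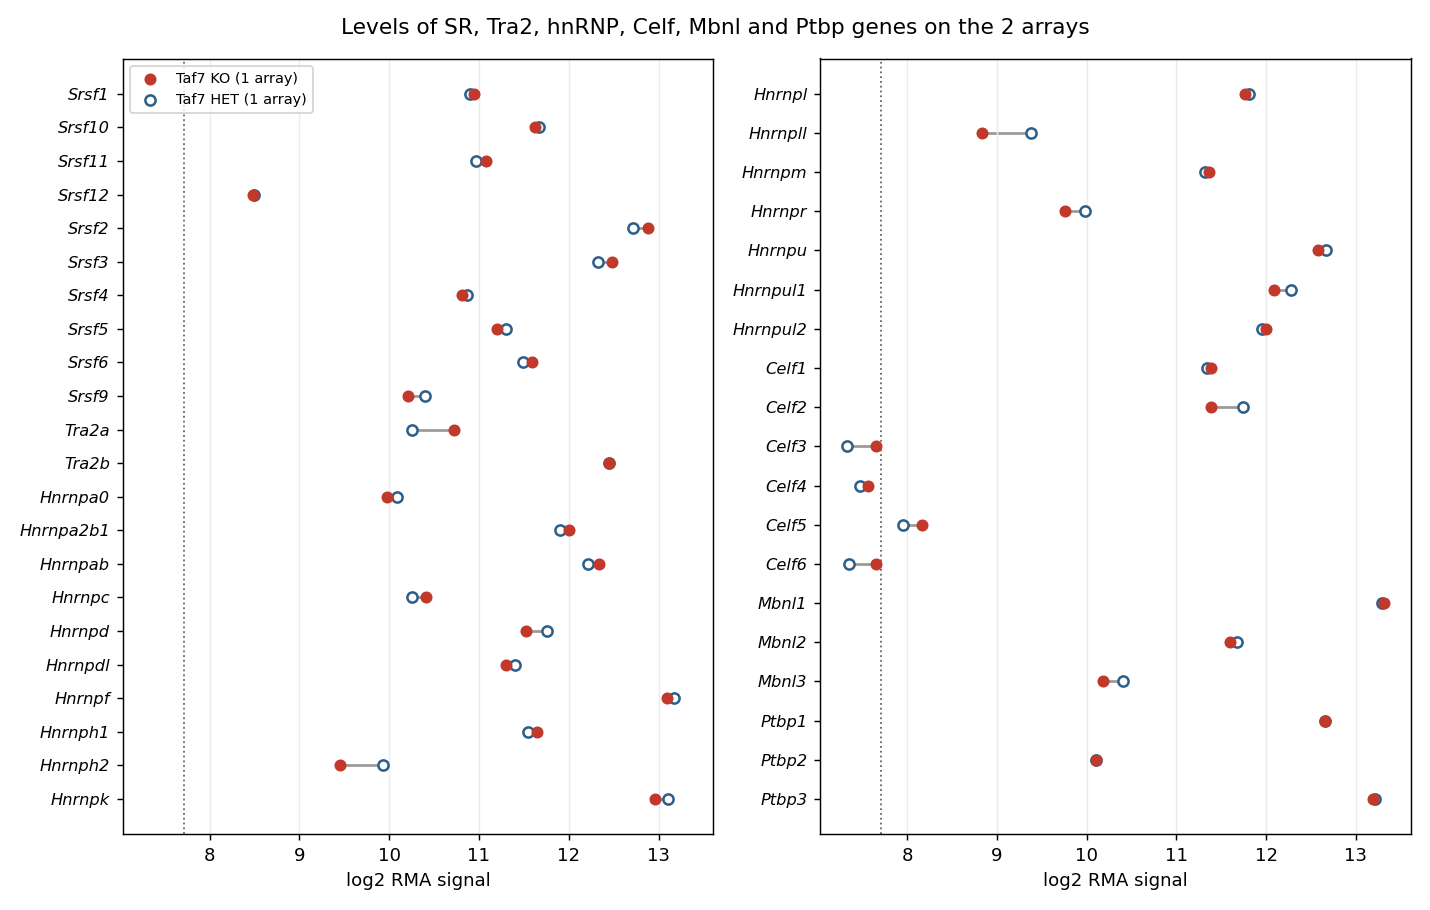
Log2 RMA signal (horizontal axis) of the SR, Tra2, hnRNP, Celf, Mbnl and Ptbp genes, with filled points for the KO array, open points for the HET array and a dotted line at the filter of 7.71. Most pairs of points nearly touch, and the widest gaps are those of Hnrnpll, Hnrnph2, Tra2a and Celf2.

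The share of genes past 1.2-fold was smaller at higher signal, and the members had high signals. Their median log2 signal was 11.07 in KO and 11.04 in HET, beside 9.69 in KO and 9.81 in HET for all genes above the filter. Between the filter and a log2 signal of 9, 2 of 5 members passed 1.2-fold, beside 37.2% of all genes in that bin. From 9 to 10 it was 2 of 13 members beside 30.7%, and from 10 to 11 it was 1 of 15 beside 20.5%. From 11 to 12 it was 1 of 21 members beside 13.9%, and at 12 and over 0 of 13 beside 8.72%. The lowest bin was thus the one in which the members' share was not below that of all genes, on 5 members. No test of these shares was made, and nothing particular to the splicing regulators is read from them.

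**Figure D2:**
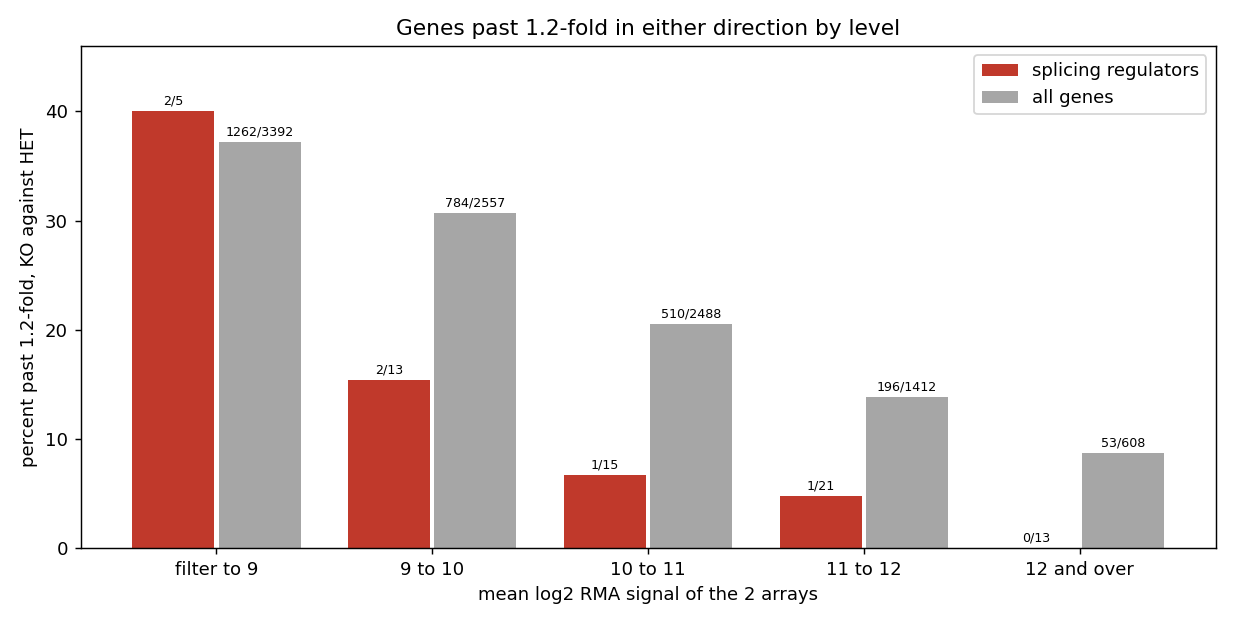
Percent of members (left bars) and of all genes (right bars) past 1.2-fold in either direction, KO against HET, in bins of the mean log2 signal of the arrays, with the counts above the bars. The share of all genes drops from 37.2% in the lowest bin to 8.72% in the highest, and the members fill the upper bins.

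By the cluster with the highest mean, the Srsf genes lay within 1.2-fold, as most genes did. All 10 measured Srsf genes passed the filter, and by that cluster none reached 1.2-fold, a size that 26.8% of all genes reached. At signals of 10 to 11 that share was 20.5%, and at 11 to 12 it was 13.9%. With 10 genes at a median signal of 11.13, nothing particular to the SR proteins is read from this. By the cluster of highest mean 5 were higher in KO and 5 lower, but the 5 higher include Srsf3, whose clusters differ in sign. The third cluster of Srsf3 was at -0.48, past 1.2-fold, and its difference was -0.06 with its clusters averaged. Srsf2, the SC35 protein, was highest by difference, with a log2 signal of 12.89 in KO and 12.72 in HET (difference 0.17). The main cluster of Srsf3, the smallest SR protein and an adaptor of mRNA export, had 12.49 in KO and 12.33 in HET (0.16). Srsf11 had 11.07 in KO and 10.97 in HET (0.11), and Srsf6 had 11.59 in KO and 11.50 in HET (0.10). Srsf1, the founding SR protein, had 10.94 in KO and 10.90 in HET (0.04).

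On the lower side Srsf9 was the lowest SR protein gene, with 10.21 in KO and 10.40 in HET, a difference of -0.19. Of all genes above the filter, 26.6% were as low or lower. Srsf5 had 11.20 in KO and 11.30 in HET (-0.09). Srsf4 had a difference of -0.05, Srsf10, a regulator that represses splicing when dephosphorylated, -0.05, and Srsf12 -0.02. The median of the SR proteins was 0.01, beside -0.05 for all genes. It lay between -0.03 and 0.06 over the alternative settings, so that its sign depended on them.

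Of the SR-like Tra2 proteins, which bind purine-rich exonic enhancers, Tra2a was higher in KO and Tra2b was not. Tra2a had a log2 signal of 10.72 in KO and 10.26 in HET, 1.38-fold higher in KO, a difference at or above that of 98.7% of genes past the filter. Tra2b had 12.45 on both arrays, a difference of -0.00. Both genes had further clusters. The other Tra2a clusters had 10.57 in KO and 9.98 in HET (difference 0.59), and 9.78 in KO and 9.41 in HET (0.37), so all 3 were higher in KO. The second cluster of Tra2b had 11.12 in KO and 11.22 in HET (-0.10). Some clusters of Tra2a share deposited sequence accessions, so they are not independent measurements.

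**Figure D3:**
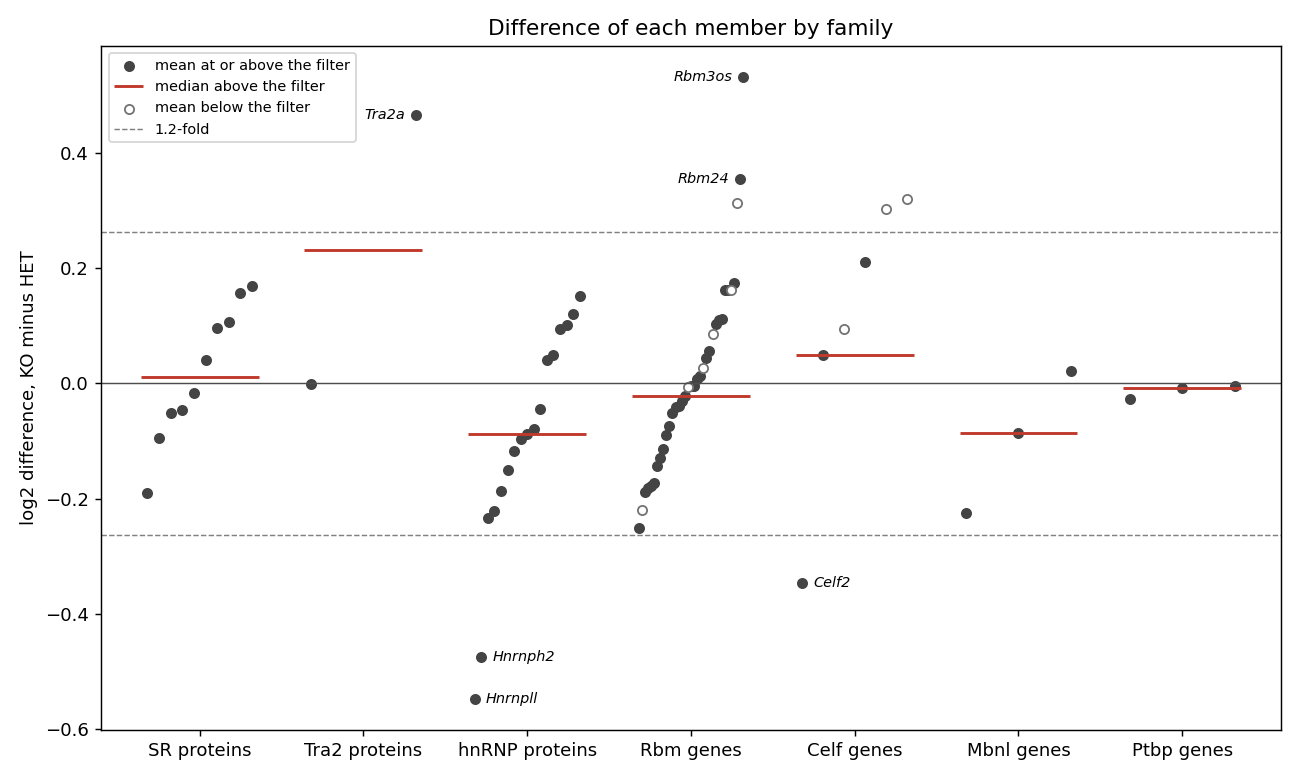
Log2 difference (KO minus HET, vertical axis) of every member by family, with filled points above the filter, open points below it, red lines at the family medians above the filter and dashed lines at 1.2-fold. The 6 named points are the members past 1.2-fold above the filter: Rbm3os, Tra2a and Rbm24 on the higher side and Hnrnpll, Hnrnph2 and Celf2 on the lower side.

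Of the hnRNP genes, Hnrnpll and Hnrnph2 were lower in KO by over 1.2-fold and the others lay within it. Of 17 measured, all above the filter, 6 were higher in KO and 11 lower, or 64.7% lower beside 59.1% of all genes. The 2 past 1.2-fold are 11.8% of the family, beside 18.5% of all genes on the lower side. The family's median was -0.09, beside -0.05 for all genes. That median was below 0 under every alternative setting run, between -0.09 and -0.01. Hnrnpll had the largest downward difference of all members, with a log2 signal of 8.84 in KO and 9.38 in HET, 1.46-fold lower in KO, and 4.02% of genes above the filter were as low or lower. Its paralog Hnrnpl, which binds CA-rich RNA, had 11.77 in KO and 11.81 in HET (-0.04).

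Beside the lower Hnrnpll signal, the genes fixed as activated or memory markers were lower in KO as well. Cd44 had 8.21 in KO and 9.56 in HET, Ctla4 had 8.16 in KO and 9.65 in HET, and Foxp3, the regulatory T cell factor, had 10.19 in KO and 11.25 in HET. The summed linear signal of these 3 genes was 1747 in KO and 3997 in HET, and all 3 lay above the filter on the mean. Foxp3 had the highest signal of the 3 on both arrays and so weighed most in the sum. CD44 protein was also used in the sort. Other markers were lower in KO too: of the 8 CD4 T cell markers 6 were lower and 2 higher, with a median difference of -0.20. Thy1 had 12.21 in KO and 13.14 in HET (-0.93), Cd3d was at -0.50 and Cd28 at -0.42. The naive markers Ccr7 and Il7r were at -0.11 and -0.22. The part of these markers in the Hnrnpll value was not tested. In bulk samples such as these, fewer cells of a type and less RNA per cell cannot be told apart.

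Hnrnph2, which binds G-rich runs, had 9.46 in KO and 9.93 in HET, 1.39-fold lower in KO. Its second cluster had 9.32 in KO and 9.67 in HET (difference -0.35), and both clusters list the same accessions. Hnrnph1, the closely related family member, had 11.64 in KO and 11.55 in HET, a difference of 0.09 of the other sign. The hnRNP H and F genes are similar in sequence and may share probe signal, which makes single members uncertain. Hnrnpf had 4 clusters with differences between -0.08 and -0.03.

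The remaining lower hnRNP genes were within 1.2-fold. Hnrnpd, the AU-rich element binding protein AUF1, had 11.52 in KO and 11.76 in HET (-0.23), and Hnrnpr had 9.76 in KO and 9.98 in HET (-0.22). Hnrnpul1 was at -0.19, Hnrnpk, a poly-C binding protein, at -0.15, and Hnrnpa0 at -0.12. All 3 clusters of Hnrnpk were lower in KO, between -0.20 and -0.14. Hnrnpdl, Hnrnpu, Hnrnpf and Hnrnpl made up the rest, between -0.10 and -0.04. The higher side was led by Hnrnpc, which binds uridine tracts, with 10.41 in KO and 10.26 in HET (0.15), and by Hnrnpab with 12.34 in KO and 12.22 in HET (0.12). Hnrnpa2b1 was at 0.10, and Hnrnph1, Hnrnpul2 and Hnrnpm lay between 0.04 and 0.09.

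The tissue-type regulators of the Celf, Mbnl and Ptbp families had 3 genes each above the filter. Among these, 1 member was past 1.2-fold, where 26.8% of all genes were. Celf2, a regulator of exon choice known from human T cell signalling, had 11.39 in KO and 11.74 in HET, 1.27-fold lower in KO. Its second cluster had 7.50 in KO and 7.79 in HET (-0.29), below the filter. Celf1, a close relative, had 11.39 in KO and 11.34 in HET (0.05), and its other cluster was of the opposite sign at -0.07. Celf3, Celf4, Celf5 and Celf6 had differences of 0.32, 0.09, 0.21 and 0.30 in that order, of which Celf5 alone passed the filter. The lower signal of such genes limits what these values show. Genes below the filter had a median difference of 0.14 and 82.5% of them were higher in KO.

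Mbnl3, of the muscleblind proteins, had 10.18 in KO and 10.40 in HET (-0.22). Mbnl2 was at -0.09 and Mbnl1 at 0.02. The polypyrimidine tract binding proteins were the closest family. Ptbp1 had 12.65 in KO and 12.66 in HET, Ptbp2 had 10.10 in KO and 10.11 in HET, and Ptbp3 had 13.19 in KO and 13.21 in HET. Their differences ran from -0.03 to -0.00.

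The Rbm genes were the largest family, with 35 members, of which 29 passed the filter, 12 of them higher in KO and 17 lower, and their median was -0.02. Rbm3os had 8.41 in KO and 7.88 in HET, 1.44-fold higher in KO, the largest upward difference of all members. Rbm3, the cold-inducible RNA-binding protein whose gene it overlaps in annotated position, had 13.08 in KO and 13.19 in HET (-0.11). The 3 clusters of Rbm3 lay between -0.15 and -0.11. Rbm24, a regulator of splicing in muscle, had 8.08 in KO and 7.73 in HET, 1.28-fold higher, and its HET value lay just above the filter. Genes between the filter and a signal of 9 had a median difference of 0.05, beside -0.05 for all genes above the filter.

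Other Rbm genes on the higher side were Rbm28, a nucleolar protein, with 9.79 in KO and 9.62 in HET (0.17), and Rbm10, whose product represses exon inclusion, at 0.16. Rbm15b, a subunit of the complex that methylates adenosines in mRNA, was at 0.16, but its second cluster was at 0.02. Rbm5, a relative of Rbm10, was at 0.11. Rbm6, another relative, was at -0.17 by its main cluster and at 0.24 by its other. Rbm15, the paralog of Rbm15b in the methylation complex, was at 0.06. On the lower side Rbm48, a protein of the minor spliceosome, had 9.71 in KO and 9.97 in HET (-0.25). Rbm8a, the Y14 subunit of the exon junction complex, had 10.85 in KO and 11.04 in HET (-0.19). Rbm26 was at -0.18 and Rbm7, of the nuclear exosome targeting complex, at -0.18. Rbm17, a spliceosomal protein, was at -0.14. Rbm39, Rbm22 and Rbm25, which act with the core spliceosome, were between -0.05 and 0.01.

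The 6 Rbm genes below the filter were Rbm8a2, Rbm47, Rbm44, Rbm11, Rbm20 and Rbm46. Rbm46, known from germ cells, had 6.56 in KO and 6.25 in HET (0.31), and Rbm20, which regulates titin splicing in heart, had 7.24 in KO and 7.07 in HET (0.16). Rbm8a2, the pseudogene, was at -0.22. Of all 9 members below the filter, 7 were higher in KO and 2 lower, and the median was 0.09. That is on the side to which most genes below the filter lay, and nothing is read from it.

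Where 1 gene had several clusters, they mostly lay on the same side. Of the 16 such members, 11 had all their clusters on 1 side of 0 and 5 did not, and the median spread between the clusters of a gene was 0.11. Clusters of a gene that share sequence are not independent measurements, so part of this agreement was fixed in advance. The 2 clusters of Srsf5, for example, had the same difference, -0.09. The widest spread, 0.63, was that of Srsf3. Its main cluster and a second one, at 12.27 in KO and 12.13 in HET (0.14), were higher in KO, but the third had 8.73 in KO and 9.20 in HET, a difference of -0.48. The clusters of Rbm6 also disagreed, at -0.17 and 0.24, and those of Celf1, Rbm25 and Ptbp1 differed in sign with every difference within 0.12. Which cluster measures the transcribed locus was not settled for Srsf3, so the sign of its difference depends on the cluster taken.

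**Figure D4:**
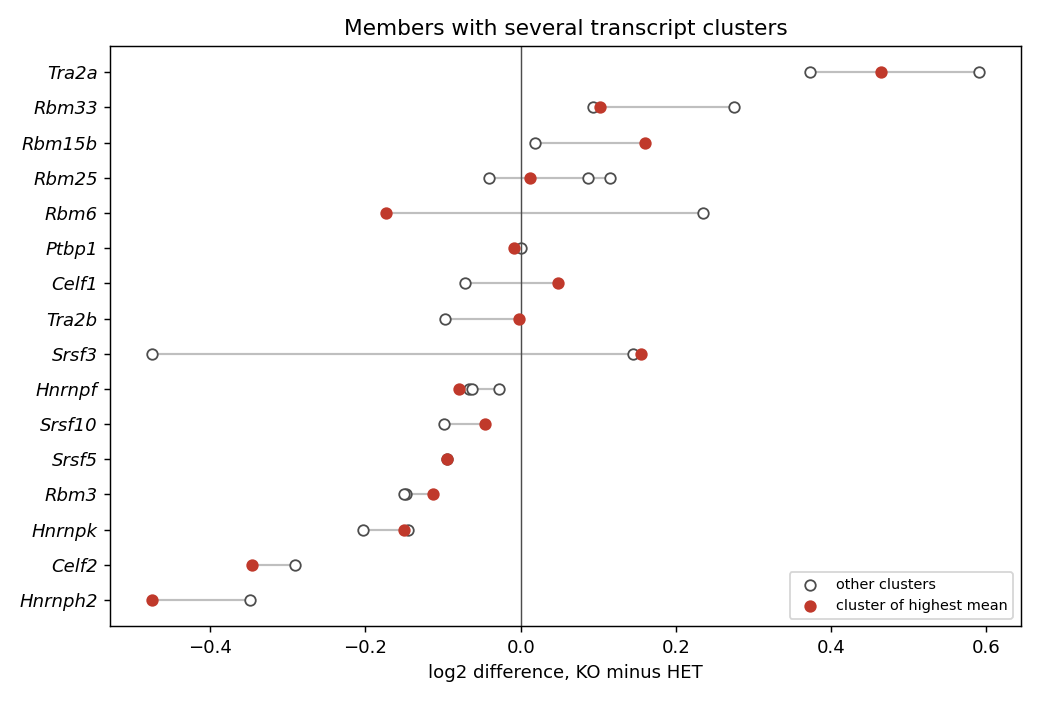
Log2 difference (KO minus HET, horizontal axis) of each transcript cluster of the 16 members with several clusters, with the cluster of highest mean filled. All clusters of Tra2a lie to the right of 0 and all of Hnrnph2 and Celf2 to the left, while those of Srsf3 lie on both sides.

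For Tra2a, Hnrnph2, Hnrnpll and Celf2, a paralog lay within 1.2-fold. So did 61 of the 67 members above the filter, so this was likely in advance and nothing is read from it. The pairs were chosen after their values were seen. Tra2a exceeded Tra2b by 0.47 in log2 difference, Hnrnph2 lay below Hnrnph1 with a gap of -0.57, Hnrnpll below Hnrnpl with -0.50, and Celf2 below Celf1 with -0.39. Smaller gaps of -0.25 and -0.24 separated Mbnl3 from Mbnl1 and Hnrnpul1 from Hnrnpul2. These are gaps between single differences on the same 2 arrays and carry no error.

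The genes of proteins that modify or accompany SR proteins mostly lay within 1.2-fold, as did most genes. The list of SR kinases, phosphatase and importer had 14 of 15 measured genes above the filter, 6 higher and 8 lower, with a median of -0.04. None of the 14 was past 1.2-fold, where 26.8% of all genes were. Clk4 and Clk3, nuclear kinases of SR proteins, had 11.78 in KO and 11.52 in HET (0.25) and 11.73 in KO and 11.49 in HET (0.25). The lowest were Ppp1cb and Ppp1cc, catalytic subunits of protein phosphatase PP1, at -0.14 and -0.13, and Srpk1, the cytoplasmic SR kinase, at -0.08. Of 21 SR-related and exon junction genes, 12 were higher and 9 lower, and the median was 0.01. Past 1.2-fold were 2 genes on the lower side, or 9.52% beside 18.5% of all genes. Srek1 had 9.14 in KO and 9.53 in HET (-0.39). Eif4a3, the RNA helicase that anchors the exon junction complex, had 10.15 in KO and 10.48 in HET (-0.34). Pnn was the highest at 0.25.

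Among 28 other sequence-specific regulators above the filter, 17 were higher in KO, 11 were lower, and the median was 0.02. Nova2, best known from neurons, was the 1 gene of them past 1.2-fold, or 3.57% beside 26.8% of all genes. It had 8.59 in KO and 8.31 in HET (0.28). Ddx5, an RNA helicase, was at 0.25, Sfpq at 0.24 and Syncrip at -0.26. The spliceosome core had all 44 measured genes above the filter, 15 higher and 29 lower, with a median of -0.07, which changed sign under an alternative setting. Past 1.2-fold on the lower side were 3 genes, or 6.82% beside 18.5% of all genes: Sf3b5 at -0.35, Sf3b2 at -0.29 and Sf3b6 at -0.27. They encode subunits of SF3b, which recognises the branch point, but other subunits lay elsewhere, Sf3b1 at 0.21 and, named after their values were seen, Sf3b3 at 0.08 and Sf3b4 at -0.09. Dhx16, a remodelling helicase, had 10.77 in KO and 10.50 in HET (0.27).

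The nonsense-mediated decay list, of interest because SR transcripts can be its substrates, had 9 genes above the filter, 4 higher and 5 lower, with a median of -0.04. Smg1, the kinase of Upf1, had 12.34 in KO and 11.97 in HET (0.37), the 1 gene of the list past 1.2-fold upward. Upf1 itself was at 0.06 and Upf2 at -0.18. Nbas, at -0.29, was the 1 gene past 1.2-fold downward. Smg1 and Nbas together were 22.2% of the 9 genes, beside 26.8% of all genes past 1.2-fold in either direction. The deposited values are summed over a gene and do not separate isoforms, so neither exon use nor isoforms that decay can be read from them.

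**Figure D5:**
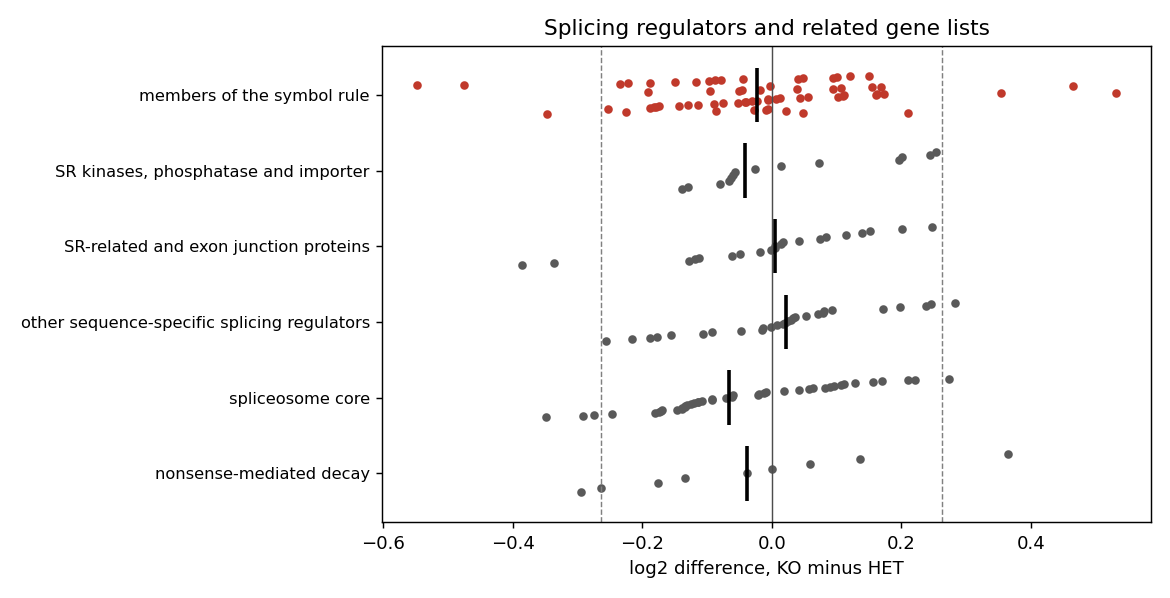
Log2 difference (KO minus HET, horizontal axis) of the genes above the filter in the splicing regulators (top row) and in 5 related lists, with black bars at the medians and dashed lines at 1.2-fold. All 6 medians lie between -0.07 and 0.02.

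The differences of members with and without these promoter letters had close medians. The 9 members above the filter with TATAAA in a promoter had a median difference of 0.02 and the 50 without it -0.02. For CCAAT the medians were -0.03 in 30 genes with it and -0.00 in 29 without, and for GGGCGG -0.00 in 40 genes and -0.04 in 19. These are descriptions of single arrays. Across the 67 members the difference had a correlation with the mean signal of -0.08 (Pearson) and 0.02 (Spearman), taken across genes, which share their arrays and are no replicates.

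Several known members of these families are not among the 76. The reference table holds 10 further symbols that meet the rule. Counted separately, 8 symbols that meet the rule and are not members occur in clusters that list several symbols. Those clusters were not assigned to a gene. Hnrnpa1 and Srsf7 are among the 10 and were not analysed here. The 20 clusters with several symbols, 1 of them meeting the rule, had differences between -0.51 and 0.18 with a median of -0.28, and 11 were at least 1.2-fold lower and none higher. Above the filter these were 11 of 19, or 57.9%, beside 21.9% of all 831 clusters with several symbols. Many of these clusters list the same symbols as each other, so they are not separate genes.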

How the data were processed

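Total RNA was hybridised with 1 array per genotype. The authors deposited log2 gene-level signals made with RMA in Affymetrix Expression Console version 1.1 and limited to the core gene set, per the series' design text. That text speaks of an exon array, but the identifiers belong to the probe table of a gene-level array. The array, the genome build and which arrays were summarised together remain not given in the sources used here.

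Of 35556 rows, 21789 had 1 gene symbol, 1621 several and 12146 none; those with 1 were named. All 76 members matched the reference table of GRCm38.p6. The values were compared without further normalization as KO minus HET. Genes with a mean at or above the 50th percentile of rows, 7.71, were counted at 1.2-fold, 1.5-fold and 2-fold. The members and lists were chosen with earlier results of these data known. Every member may be named; from each related list up to 3 genes at each end are. Protein features were not computed, because no protein table was used here. The counting was tested on simulated data with planted differences and little noise. That checks the counting itself and not the precision of the calls on these arrays. The 7 alternatives were centring, loess removal (span 0.3), quantile normalization, averaged clusters, and a filter that was absent or set to the 25th or 75th percentile. Tools were pandas 2.3.3, numpy 2.4.6, matplotlib 3.10.9 and statsmodels 0.14.6 under Python 3.11.15.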

Additional observations from a re-analysis of the deposited data

Results flagged for a closer look

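The second transcript cluster of Tra2a, which the comparison did not use because its mean was lower, had a log2 difference (KO minus HET) of 0.59, or 1.51-fold, with 10.57 in KO and 9.98 in HET. It drew attention because it lies outside the main measurement and exceeds 1.5-fold, a size no member reached with its main cluster. Its main cluster had 0.46.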

How the results depend on the processing

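Leaving out an array was not possible with 1 per genotype. No paired analysis was possible because there is 1 array in each group. The 7 alternatives left the members at 3 lower by 1.2-fold, except 2 with the filter at the 75th percentile, and at 0 past 1.5-fold in each. Members at least 1.2-fold higher numbered 6 with no filter, 5 with the filter at the 25th percentile and 1 at the 75th, against 3, since these settings change which genes are tested. With the loess trend removed, 5 of the 6 members past 1.2-fold remained: Rbm24 came to 0.23 and Rbm28, at 0.27, passed. The members' median lay between -0.03 and 0.05 and changed sign. Over all genes, those at least 1.2-fold higher numbered 3019 with no filter and 2275 with the filter at the 25th percentile, against 870. With the filter at the 75th percentile there were 191 higher and 857 lower at 1.2-fold, 16 and 105 at 1.5-fold, and 2 and 12 at 2-fold. At 1.5-fold 71 were higher after centring and 91 with no filter, against 47. Of the members, 24 changed sign under at least 1 setting, among them Srsf3 and Rbm6, and 52 did not. Of the 12 medians of families and lists, 7 changed sign.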
